A study of Mus musculus with 56 samples.

Results

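The peaks that HOMER assigned to 8 macrophage lineage-determining genes were examined in bone marrow-derived macrophages (BMDMs). The genes are Spi1, Cebpa, Cebpb, Cebpd, Maf, Runx1, Mitf, and Csf1r, and a peak was a member when its annotated gene name was one of these. In 56 peak lists, 4494 of 1610519 peaks belonged to the 8 genes, among 20352 genes with at least 1 peak. Spi1 had 154 peaks, Cebpa 307, Cebpb 4, Cebpd 265, Maf 1451, Runx1 1315, Mitf 644, and Csf1r 354. The lists name Spi1 by its older symbol Sfpi1.

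A macrophage is specified by a small set of factors that bind DNA together. PU.1, the product of Spi1, is an ETS-domain protein that opens macrophage enhancers, and the C/EBP proteins are leucine-zipper partners that it meets at many of them. Runx1 encodes a Runt-domain protein that acts with PU.1 from the blood stem cell onwards, Maf encodes a large bZIP protein of mature macrophages, and Mitf encodes a basic helix-loop-helix leucine-zipper protein of the lysosome, osteoclast, and melanocyte programs. Csf1r encodes the receptor for M-CSF, the growth factor on which these cells depend, and its gene is a classical target of PU.1. IL-4 acts through STAT6, and LPS acts through TLR4 and NF-κB, of which p65 is a subunit.

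The cells were wild-type BMDMs, which the study's methods place on the C57BL/6 background at 8 to 12 weeks of age. Bone marrow was differentiated with M-CSF, for which L929-cell supernatant was the source, so the cells of every group had received that stimulus. The state of the receptor during the treatments was not measured. In the 1 hr experiment, untreated cells were compared with cells given IL-4 (20 ng/ml) for 1 hr, with 2 samples per group and 8 antibodies (PU.1, p300, H3K27Ac, the HDACs 1, 2, and 3, and the 2 RNAPII forms). In the 24 hr experiment, p65 and the same RNAPII forms were measured in 4 groups of 2 samples. These were ctrl/ctrl, IL-4 PT/ctrl with 24 hr of IL-4 pretreatment, ctrl/LPS with LPS (100 ng/ml) for 1 hr, and IL-4 PT/LPS with both. RNAPII-pS5 is the serine-5-phosphorylated polymerase of initiation, RNAPII-pS2 the serine-2-phosphorylated polymerase of elongation, H3K27Ac a mark of active promoters and enhancers, p300 an acetyltransferase that deposits it, and the HDACs remove acetyl groups. ChIP-seq of a whole culture cannot tell a change in every cell from a change in the share of cells, and the labels do not say whether the 2 samples of a group came from separate animals, so p-values measure the spread between these samples.

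On the mm10 assembly, Spi1 lies at chr2:91082390-91115756 (+ strand), Cebpa at chr7:35119293-35121928 (+), Cebpb at chr2:167688915-167690418 (+), Cebpd at chr16:15887286-15891031 (+), Maf at chr8:115682942-115707794 (− strand), Runx1 at chr16:92601466-92826149 (−), Mitf at chr6:97807052-98021349 (+), and Csf1r at chr18:61100598-61132149 (+). HOMER gives a peak the name of the nearest transcription start site, so the number of peaks follows the empty space around a gene. The stretch over which peaks took a gene's name was 956.4 kb for Maf, 488.4 kb for Runx1, 423.0 kb for Mitf, 122.3 kb for Cebpd, 60.1 kb for Cebpa, 50.9 kb for Csf1r, 18.1 kb for Spi1, and 9.1 kb for Cebpb. Of the Maf peaks, 1259 were intergenic, and the farthest lay 596.3 kb downstream and 359.7 kb upstream of the start site. Many peaks named for Cebpd lie in introns of the neighbouring gene Spidr, and the farthest Maf peaks lie in introns of Wwox, so a name here records proximity and not regulation. Distances are given from the nearest annotated start site, of which Runx1 and Mitf have several.

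The unit of every list except H3K27Ac is a peak score on a −log10 p or q scale, as judged from the scores, and a score of 0 means that no peak was listed. H3K27Ac is a normalized tag signal in regions of about 1 kb. Depth cannot be known without reads, and library size is described by peak number, from 8440 to 71027. The p300 library of untreated replicate 1 stood apart with 44787 peaks, against 66710, 67026, and 69360 in the others, and in the 1 hr experiment the peak names of RNAPII-pS2 carry the opposite treatment to the labels, which were kept. The HDAC3 samples are labelled with the same antibody catalogue number as H3K27Ac. All 8 macrophage markers (Adgre1, Cd68, Itgam, Lyz2, Mertk, Fcgr1, Cd14, Mrc1) had an RNAPII-pS5 peak in both untreated samples, a count chosen after seeing that only 2 (Mertk and Mrc1) had one annotated to the promoter in every untreated RNAPII-pS5 or H3K27Ac sample. The same promoter measure held for 1 of 7 granulocyte markers (S100a8) and for 0 of 5 B cell, 0 of 5 T cell, 0 of 3 erythroid, 0 of 3 fibroblast, and 0 of 2 epithelial markers. The measure of any RNAPII-pS5 peak in both untreated samples held for 3 of 7 granulocyte, 1 of 5 B cell, and 1 of 5 T cell markers. It also held for 1 of 3 erythroid, 0 of 3 fibroblast, and 1 of 2 epithelial markers. The summed RNAPII-pS5 score was 864 and 670 over the macrophage markers in the 2 untreated samples, 34.5 and 28.3 over granulocyte, 103 and 47.6 over B cell, 134 and 92.7 over T cell, 51.5 and 32.9 over erythroid, and 140 and 83.6 over epithelial markers, with no peak on a fibroblast marker.

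First, sequences under p300 sites with higher scores after 1 hr of IL-4 were read, because such sites hold the motif of the IL-4-activated factor more often than the other sites of the same genes. A window of 200 bases was centred on the highest p300 peak of each site, and 5 motifs were searched on both strands. The STAT6 motif was TTC and GAA spaced by 4 bases, the PU.1 motif was GAGGAAGT, the C/EBP motif was TTGCNNAA, the AP-1 motif was TGANTCA, and the kappaB motif was searched by its consensus. The following windows are from the RefSeq assembly GRCm38.p6, + strand, 5′ to 3′, with motif matches in capitals. Runx1 +25.8 kb, Cebpa −3.3 kb, Cebpd +8.9 kb, and Maf +121.0 kb were picked among higher p300 sites that hold a STAT6 match. Runx1 +38.9 kb, Runx1 −179.7 kb, and Maf +138.2 kb were picked without regard to motif, because at least 4 antibodies were higher there without overlap. Cebpd +27.1 kb and Maf +314.4 kb, picked in the same way, held none of the 5 motifs and are not printed. In the Runx1 windows at +38.9 kb (chr16:92787062-92787261), −179.7 kb (chr16:93005623-93005822), and +25.8 kb (chr16:92671436-92671635), in the Cebpa window at −3.3 kb (chr7:35115879-35116078), and in the Cebpd window at +8.9 kb (chr16:15896136-15896335), the capitals mark 1 STAT6 motif each. In the Maf window at +121.0 kb (chr8:115585772-115585971), the capitals mark a STAT6 motif at bases 112 to 121 and a PU.1 motif at bases 116 to 123, which overlap. The Maf window at +138.2 kb (chr8:115568555-115568754) is shown as a site where p300 and H3K27Ac were both higher with IL-4 and that holds a PU.1 motif at bases 26 to 33 and AP-1 motifs at bases 114 to 120 and 191 to 197 but no STAT6 match.
Runx1 +38.9 kb: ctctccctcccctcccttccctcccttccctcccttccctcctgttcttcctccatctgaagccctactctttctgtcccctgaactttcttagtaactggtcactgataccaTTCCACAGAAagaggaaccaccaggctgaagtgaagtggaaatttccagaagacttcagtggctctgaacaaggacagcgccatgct
Runx1 −179.7 kb: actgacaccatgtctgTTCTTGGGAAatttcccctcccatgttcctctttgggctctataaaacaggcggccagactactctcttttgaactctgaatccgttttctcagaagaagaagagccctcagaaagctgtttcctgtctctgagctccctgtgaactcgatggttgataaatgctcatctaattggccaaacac
Runx1 +25.8 kb: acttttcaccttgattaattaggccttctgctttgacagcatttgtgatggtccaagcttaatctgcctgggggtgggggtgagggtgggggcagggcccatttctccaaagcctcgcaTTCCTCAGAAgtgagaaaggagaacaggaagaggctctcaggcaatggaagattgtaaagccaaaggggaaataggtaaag
Cebpa −3.3 kb: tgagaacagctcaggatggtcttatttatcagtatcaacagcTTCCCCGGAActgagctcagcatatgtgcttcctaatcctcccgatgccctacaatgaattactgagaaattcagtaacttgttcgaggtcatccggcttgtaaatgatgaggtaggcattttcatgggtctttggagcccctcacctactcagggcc
Cebpd +8.9 kb: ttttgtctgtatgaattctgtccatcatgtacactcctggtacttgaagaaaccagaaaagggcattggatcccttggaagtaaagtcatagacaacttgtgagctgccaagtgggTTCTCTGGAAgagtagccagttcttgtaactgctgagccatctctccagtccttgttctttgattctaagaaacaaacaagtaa
Maf +121.0 kb: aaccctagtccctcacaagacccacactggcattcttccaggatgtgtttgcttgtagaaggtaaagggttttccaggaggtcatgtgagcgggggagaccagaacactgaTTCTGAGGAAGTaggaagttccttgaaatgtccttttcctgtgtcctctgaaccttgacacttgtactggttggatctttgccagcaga
Maf +138.2 kb: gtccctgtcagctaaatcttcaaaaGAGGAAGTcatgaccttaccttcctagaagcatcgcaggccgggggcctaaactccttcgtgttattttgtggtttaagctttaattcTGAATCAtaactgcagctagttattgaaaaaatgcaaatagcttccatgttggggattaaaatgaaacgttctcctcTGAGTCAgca

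The STAT6 motif stood in 15 of the 38 member windows whose p300 score was higher with IL-4 at an unadjusted p of at most 0.05, or 39.5%. It stood in 9 of the other 146 member windows, or 6.16%. Over all genes the shares were 36.3% of 11808 windows with higher p300 and 4.93% of the other 55417, and 10.5% of all 67225 windows held a match. The lineage genes thus had shares near those of the whole genome in both classes. The other motifs differed less between the classes. The PU.1 motif stood in 10.5% of the higher and 9.59% of the other member windows (10.4% of all windows), the C/EBP motif in 10.5% and 18.5% (13.8% of all), the AP-1 motif in 21.1% and 20.5% (17.2% of all), and the kappaB motif in 5.26% and 2.05% (5.24% of all). A match describes the letters of a window, and whether a factor bound there was not tested. These shares are descriptions with no test, since the windows share genes and libraries.

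**Figure D1:**
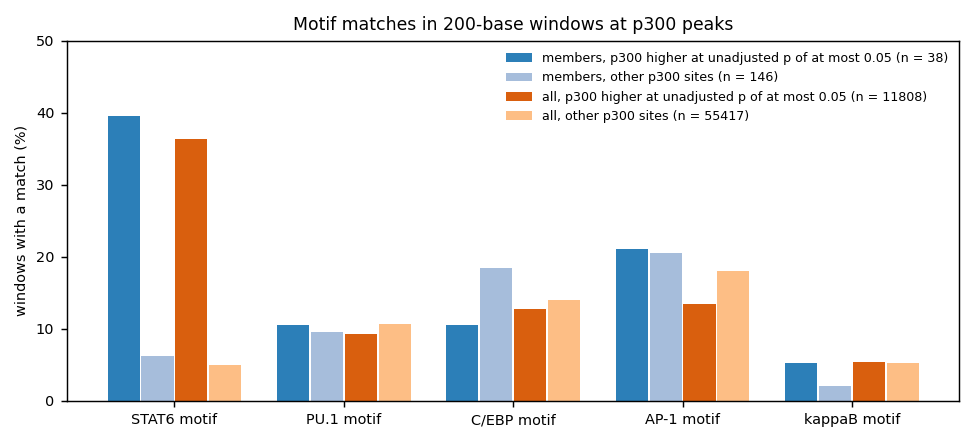
Share of 200-base p300 windows (y axis, percent) that hold each of 5 motifs (x axis), with bars for member windows with higher p300 after 1 hr of IL-4 at an unadjusted p of at most 0.05 (38 windows), the other member windows (146), and the same classes over all genes (11808 and 55417). The STAT6 bars stand at 39.5% and 36.3% for the higher classes and at 6.16% and 4.93% for the others, while the remaining motifs differ by less between the classes.

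The lineage genes other than Cebpb carried PU.1 sites, treated or not. Of the factors that these genes encode, PU.1 alone was among the antibodies. The highest PU.1 score of each gene, given as its lowest and highest value over the 4 samples, was 80.3 to 173 at Cebpd (+2.8 kb), 92.5 to 160 at Runx1 (−205.9 kb), 68.3 to 116 at Csf1r (+0.2 kb, in an intron at the start of the gene), 57.6 to 112 at Maf (−71.7 kb), 44.3 to 102 at Mitf (+22.3 kb), 38.5 to 68.8 at Cebpa (+31.8 kb), and 14.2 to 31 at Spi1 (−10.3 kb). PU.1 thus lay on the distal region of its own gene, with a range below that of the other 6 genes with a PU.1 site. The ranges of Cebpd, Runx1, Csf1r, Maf, and Mitf overlap, so no order among them can be read beyond the spread of the samples. No PU.1 peak carried the name of Cebpb.

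The highest p300 peak lay at the place of the highest PU.1 peak at Cebpd and Spi1, and elsewhere at the other genes. At Cebpd, p300 was highest at +2.8 kb (82.8 to 204) and HDAC3 at +2.9 kb (36.4 to 49.3), in a region that HOMER annotates as the TTS of the gene. At Csf1r, p300 (109 to 204), HDAC3 (19.4 to 31.1), and a p65 site met in the intron at +3.1 kb. At Maf, p300 (75.9 to 235) and HDAC2 (25.2 to 32.2) were highest at +151.2 kb, an intergenic region downstream of the gene. At Runx1, p300 was highest in an intron at +21.5 kb (140 to 244), where H3K27Ac was also highest (563 to 592), and HDAC3 was highest at the start site itself (18 to 33.7). At Mitf, p300 was highest at +13.7 kb (54.3 to 167) and HDAC3 at +4.2 kb (31.1 to 40.8), both intronic. At Spi1, p300 was highest at −10.2 kb (24.9 to 91.2). Where all peaks of H3K27Ac, PU.1, p300, and the 3 HDACs were merged by at least 1 bp of overlap, the genes held 294 sites, of which 124 had 1 antibody, 55 had 2, 27 had 3, 23 had 4, 28 had 5, and 37 had all 6.

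Next, the polymerase on the genes was compared after 1 hr of IL-4. The value of a gene is the sum of the scores of its peaks, and differences were tested with limma on log2 scores across all genes with Benjamini-Hochberg adjustment, calling an adjusted p of at most 0.05. None of the 7 genes tested was called for RNAPII-pS5, against 1.05% of 13481 genes, and none reached an unadjusted p of 0.05, against 14.8% of genes. For RNAPII-pS2, none of 7 was called, against 0% of 10617 genes, and 1 (Spi1) reached an unadjusted p of 0.05, against 16.8%.

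Maf, with 20 to 29 peaks per sample, had RNAPII-pS5 sums of 559 and 445 in the untreated samples and 366 and 360 after IL-4. The groups did not overlap, but the difference missed the threshold (−0.41 log2, SE 0.16, limma adjusted p = 0.375). Csf1r had 163 and 158 untreated and 154 and 142 after IL-4 (−0.07 log2, SE 0.22, adjusted p = 0.926). Cebpa had 173 and 128 untreated and 109 and 119 after IL-4, a gap of the same order as the gap between its untreated samples (−0.34 log2, SE 0.17, adjusted p = 0.471). The sums of Spi1 (92.0 and 25.9 untreated, 50.9 and 70.4 with IL-4), Runx1 (319 and 224, then 283 and 245), Cebpd (90.4 and 83.7, then 88.7 and 74.2), and Mitf (117 and 93.6, then 96.0 and 63.1) overlapped between the groups or nearly so. In RNAPII-pS2, Spi1 had 10.4 and 23.7 in the samples labelled untreated and 34.4 and 30.4 in those labelled IL-4 (1.13 log2, SE 0.42, limma adjusted p = 0.286), and the direction rests on labels that the peak names contradict. Csf1r RNAPII-pS2 was 164 and 145 against 133 and 142 (−0.08 log2, SE 0.38, adjusted p = 0.952).

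Cebpb, which encodes a C/EBP factor of the acute response, can hardly be read from gene names. It carried 4 named peaks in 3 libraries, with scores of 7.18 (RNAPII-pS5, IL-4 replicate 2), 7.59 and 5.93 (p300, untreated replicate 2), and 6.36 (p300, IL-4 replicate 1). The lincRNA gene A530013C23Rik, which begins next to it (chr2:167691177-167729172), carried 690. Peaks of any name within 3 kb of Cebpb were therefore read directly. H3K27Ac there was 241 and 260 in untreated samples and 182 and 188 with IL-4, with no overlap, and is given with no test. The highest RNAPII-pS2 score was 10.8 and 13.8 in samples labelled untreated and 15.3 and 20.3 in those labelled IL-4. No PU.1 or HDAC3 peak lay in the window in the 1 hr experiment.

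H3K27Ac, unlike the polymerase, gave many calls near these genes. Of 53 member regions tested, 28 were called with IL-4, or 52.8%, 9 higher and 19 lower, against 40.3% of 28929 regions over the genome (18.5% higher and 21.7% lower). The median difference was −0.17 log2 over the member regions and −0.02 over all. Maf held most of the lower calls, with 12 lower and 1 higher among 20 regions. Cebpd had 3 lower and 1 higher of 4, Runx1 2 lower and 3 higher of 14, Cebpa 1 lower and 1 higher of 6, Mitf 1 lower and 2 higher of 6, Csf1r 1 higher of 2, and the single Spi1 region was not called. Leaving out 1 library lowered the number of calls and moved the split. There were 6 higher and 5 lower without untreated replicate 1 (16.3% called over all regions), 6 and 4 without untreated replicate 2 (17.2%), 4 and 10 without IL-4 replicate 1 (23.3%), and 6 and 6 without IL-4 replicate 2 (22.3%).

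The Maf regions with lower acetylation formed a chain downstream of the gene, from +56.5 to +308.7 kb, with 1 more upstream at −64.4 kb. The region at +212.4 kb (chr8:115493988-115495050) had a signal of 107 and 109 in untreated samples and 43.7 and 45.8 with IL-4 (−1.22 log2, SE 0.06, limma adjusted p = 0.00174). The region at +277.1 kb had 200 and 198, then 86.1 and 95.5 (−1.08 log2, SE 0.08, adjusted p = 0.0036), and the one at +234.4 kb had 44.2 and 44.7, then 16.9 and 20.5 (−1.20 log2, SE 0.11, adjusted p = 0.00659). In each of the 3, the untreated signal was above both IL-4 values by a factor that far exceeded the gap between replicates. The strongest Maf region, at +92.7 kb, moved less, from 558 and 551 to 416 and 409 (−0.37 log2, SE 0.06, adjusted p = 0.0177). The opposite case was +138.1 kb (chr8:115568264-115569288), where no region was listed in untreated samples and a signal of 46.0 and 46.9 was listed with IL-4 (adjusted p = 0.000263). For a region that 1 group does not list, the size of the difference is set by the lowest signal of the lists, which replaces the missing value. Such a region enters the fit through the other group alone, so its adjusted p rests on the listing. Its size is not given.

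Runx1 had regions that rose and regions that fell. The intronic regions at −18.4 kb (chr16:92715094-92716219) and +38.4 kb (chr16:92786762-92788161) had the largest rises, from 137 and 136 to 282 and 279 (1.09 log2, SE 0.06, adjusted p = 0.00193) and from 162 and 159 to 305 and 300 (0.96 log2, SE 0.06, adjusted p = 0.00265). A promoter region at −0.8 kb rose from 378 and 406 to 492 and 482 (0.37 log2, SE 0.07, adjusted p = 0.0284). The region at −42.1 kb fell from 510 and 488 to 373 and 372 (−0.37 log2, SE 0.06, adjusted p = 0.0198), and the one at +76.4 kb from 195 and 178 to 124 and 141 (−0.44 log2, SE 0.10, adjusted p = 0.0375). The strongest Runx1 region, at +21.5 kb, held 587 and 563, then 592 and 587. Acetylation around this gene was thus called in both directions, within its introns and upstream of it.

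At the C/EBP genes, the Cebpd region at +27.4 kb, in an intron of Spidr, rose from 13.2 and 15.9 to 37.4 and 37.1 (1.42 log2, SE 0.12, adjusted p = 0.00504). Its regions at +69.5 and +99.2 kb fell, the second from 80.1 and 79.4 to 40.4 and 45.1 (−0.85 log2, SE 0.08, adjusted p = 0.00625). Cebpa, the C/EBP gene of the myeloid progenitor, had 1 fall at +8.1 kb, from 88.1 and 103 to 58.6 and 56.9 (−0.67 log2, SE 0.11, adjusted p = 0.0181), and 1 rise at +21.0 kb, from 95.5 and 98.7 to 113 and 120 (0.32 log2, SE 0.07, adjusted p = 0.0353). Its promoter region at −0.8 kb had 488 and 455, then 461 and 483, and the groups overlapped. At Mitf, the intronic region at −20.0 kb rose from 12.3 and 12.8 to 20.5 and 19.4 (0.72 log2, SE 0.07, adjusted p = 0.00692), and the region at −9.3 kb fell from 43.6 and 41.9 to 32.8 and 34.7 (−0.29 log2, SE 0.07, adjusted p = 0.0395).

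The intronic region next to the Spi1 start site held 827 and 818 in untreated samples and 804 and 810 with IL-4 at +0.5 kb (0.03 log2 after centring, not called). At Csf1r and Cebpd, the call rests on whether a region was listed at all. The Csf1r region at +0.8 kb (chr18:61105916-61106920) was not listed in either untreated sample and had signals of 1208 and 1185 with IL-4 (adjusted p = 8.63e-05). The Cebpd region at +3.0 kb (chr16:15889688-15890765) had 319 and 334 untreated and was not listed with IL-4 (adjusted p = 8.63e-05). PU.1 and p300 held peaks at both places in all samples. HDAC1 was listed in 1 of 4 samples at the Csf1r site, and HDAC2 and HDAC3 in 3 of 4. PU.1 at the Csf1r site was 112 and 68.3, then 116 and 96.7, and p300 was 33.1 and 77.8, then 57.2 and 63.5. PU.1 at the Cebpd site was 141 and 80.3, then 173 and 146, and HDAC3 was 42.7 and 36.4, then 44.4 and 49.3. Of the 3250 regions of the genome with a signal of at least 300 in any sample, 163 were listed in both samples of 1 group and neither of the other, and these are the 2 among the member genes. Whether they reflect acetylation or the listing of regions was not tested. Among regions listed in all 4 samples, 6 member regions were called higher and 15 lower.

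**Figure D2:**
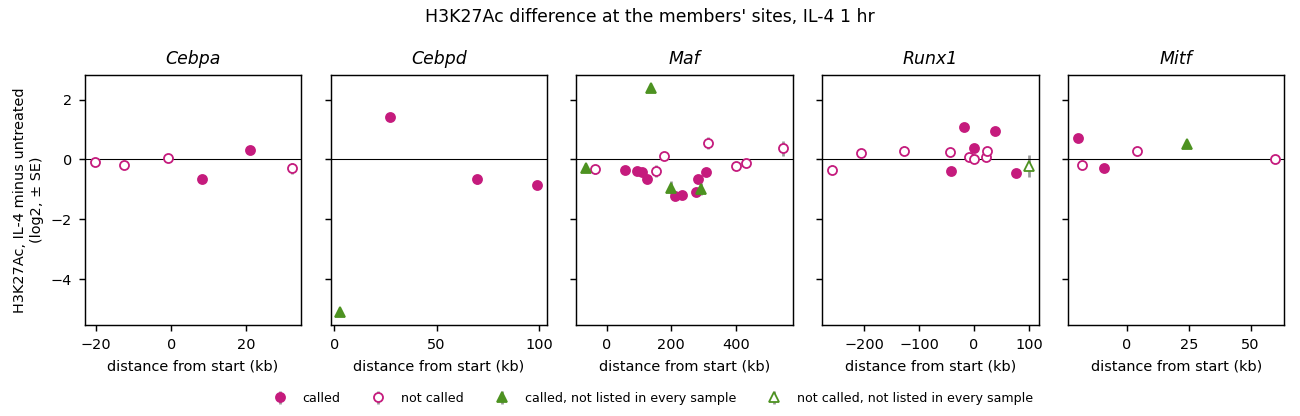
H3K27Ac log2 difference (IL-4 1 hr minus untreated, y axis) of each region by its distance from the start site in kb (x axis) for Cebpa, Cebpd, Maf, Runx1, and Mitf, with filled symbols for regions past an adjusted p of 0.05, circles for regions listed in all 4 samples, and triangles for the rest. At Maf, 12 of 13 called regions lie below 0, and Runx1 has 3 called regions above 0 and 2 below.

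PU.1 itself gave no called site on these genes. None of 172 member sites was called with limma, against 0% of 67996 sites, and 13 (7 higher, 6 lower) passed an unadjusted p of 0.05, or 7.56%, against 12.1% of all sites. Both IL-4 samples stood above both untreated samples at 55 sites, or 32%, against 29.3% of all sites, and below at 13, or 7.56%, against 10.7%. The median difference was −0.01 log2 over the member sites and −0.05 over all. 

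p300 gave 1 called member site of 184 (0.543%), against 2.46% of 67229 sites (1.88% higher, 0.58% lower). At an unadjusted p of 0.05, 38 member sites were higher, or 20.7%, against 17.6% of all. Both IL-4 samples lay above both untreated samples at 76 sites, or 41.3%, against 39.3%, and below at 3, or 1.63%, against 2.88%. The untreated group includes the p300 library with the fewest peaks. Without it 15 of 184 member sites were called, all higher, against 5.43% of all sites. Without the other untreated library 27 of 172 were called, 25 of them higher, against 14.3%. Leaving out either IL-4 library left 0 calls.

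The 1 called site lay 18.4 kb upstream of Csf1r, in intergenic sequence (chr18:61086772-61087537). Its p300 score was 8.64 and 25.8 in untreated samples and 182 and 193 with IL-4 (2.98 log2, SE 0.28, limma adjusted p = 0.0472). PU.1 was not listed there in untreated samples and was 34.3 and 30.4 with IL-4 (limma adjusted p = 0.214). HDAC1 went from no peak to 6.87 and 10.6, HDAC2 from no peak to 14.1 and 10.6, and HDAC3 from 6.9 and 0 to 17.1 and 18.3. All 5 antibodies had both IL-4 samples above both untreated samples, yet no H3K27Ac region was listed at the site. Its window of 200 bases held a STAT6 and an AP-1 motif.

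The next sites were picked because at least 4 antibodies were higher there without overlap, and not every antibody differed at them. The Runx1 intron at +38.9 kb (chr16:92786754-92788161), whose acetylation rose, had p300 at 14.6 and 42, then 185 and 158 (2.12 log2, SE 0.29, adjusted p = 0.0529). PU.1 there was 23.4 and 5.15, then 43 and 38.9, and HDAC2 was 3.91 and 6.11, then 13.4 and 13.7. HDAC1 overlapped between the groups (4.74 and 6.77, then 11.9 and 4.17), and HDAC3 was listed in 1 sample. The intergenic site at −179.7 kb of Runx1 (chr16:93005351-93006175) had no p300 peak in untreated samples and 40.5 and 38.7 with IL-4 (adjusted p = 0.0571), and PU.1, HDAC1, and HDAC2 were likewise listed with IL-4 in both samples and in neither untreated sample. The Cebpd site at +27.4 kb (chr16:15914105-15915380) had p300 at 7.51 and 26.9, then 97.8 and 89 (2.05 log2, SE 0.29, adjusted p = 0.054), beside HDAC1 (no peak, then 5.05 and 2.7) and HDAC2 (no peak, then 6.74 and 4.54), while PU.1 overlapped between the groups (4.25 and 0, then 3.62 and 4.2). These values miss the threshold and are given as measured.

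Further p300 sites were listed with IL-4 in both samples and not at all before, each at an unadjusted p under 0.05 and none past the adjusted threshold. They include the sites printed above at Runx1 +25.8 kb (61.2 and 49.6), Cebpd +8.9 kb (47.3 and 48.3), Maf +121.0 kb (45.8 and 46.5), and Cebpa −3.3 kb (22.7 and 18.3). The Csf1r intron at +2.2 kb (58.5 and 67.3) and the Mitf intron at +46.6 kb (26.6 and 24.5) belong with them. The Maf site at +138.1 kb, whose acetylation was listed with IL-4 alone, had p300 at 23.4 and 56.3, then 161 and 154 (1.44 log2, SE 0.31, adjusted p = 0.0917), while PU.1 was 76.6 and 66.7, then 76.9 and 80.1. PU.1 was thus already there, and p300 was the antibody with the larger difference.

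**Figure D3:**
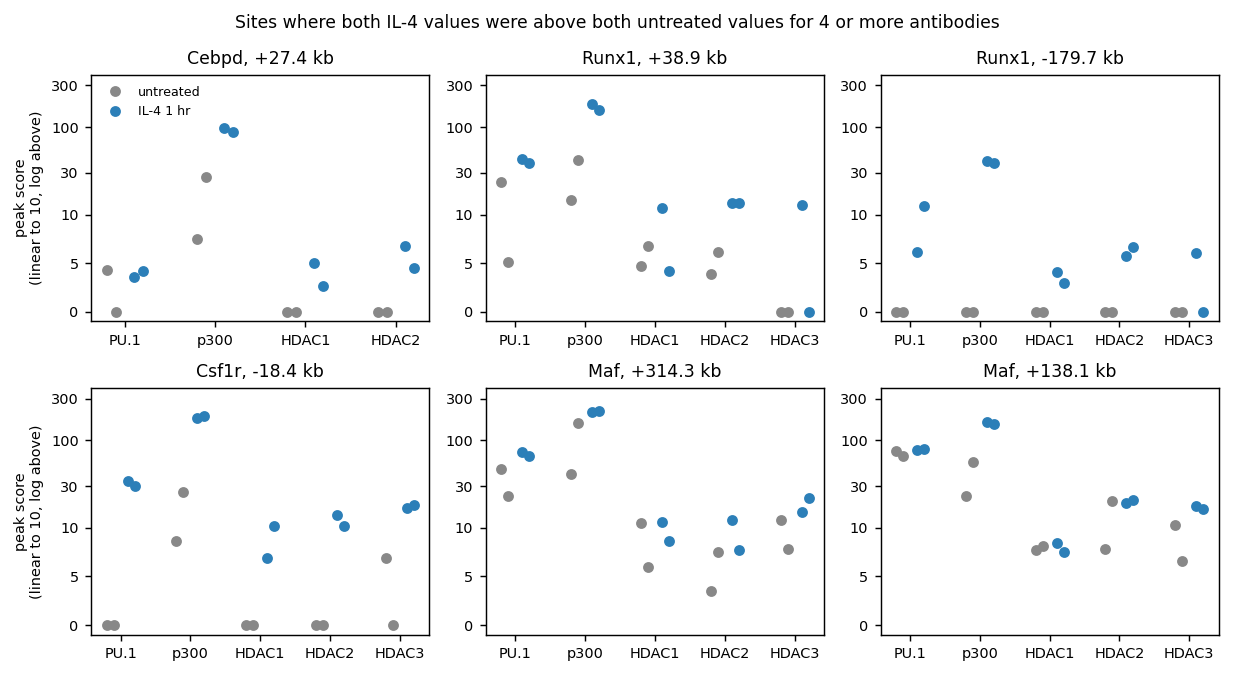
Peak scores (y axis, linear up to 10 and logarithmic above) of PU.1, p300, HDAC1, HDAC2, and HDAC3 in each untreated and IL-4 1 hr sample at 6 sites of Csf1r, Runx1, Cebpd, and Maf. At Csf1r −18.4 kb the IL-4 samples lie above the untreated samples for all 5 antibodies, with p300 at 182 and 193 against 8.64 and 25.8.

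The deacetylases gave no called member site with limma. For HDAC1, 12 of 81 sites (7 higher, 5 lower) passed an unadjusted p of 0.05, or 14.8%, against 14% of 27384 sites. Both IL-4 samples lay below both untreated samples at 24 sites, or 29.6%, against 36.3%, and above at 10, or 12.3%, against 8.13%. The HDAC1 libraries with IL-4 had fewer peaks (23270 and 22340, against 30511 and 26836), which bears on these counts of raw scores. For HDAC2, 9 of 79 sites passed (11.4%, against 13.9%), with 15 above (19%, against 20.6%) and 8 below (10.1%, against 14.6%). For HDAC3, 5 of 50 passed (10%, against 19.3%), with 13 above (26%, against 34.1%) and 4 below (8%, against 9.53%). The calls over all sites were 0% for each of the 3 HDACs.

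The co-factor scores were then set beside the acetylation calls of the same regions. Of the 9 regions with higher H3K27Ac, 6 had both IL-4 p300 scores above both untreated scores and 0 had them below. Of the 19 regions with lower H3K27Ac, 2 were above and 0 below for p300, and of the 25 uncalled regions 12 were above and 0 below. HDAC1 scores lay below without overlap at 9 of the 17 lower-acetylation regions that had an HDAC1 site, at 2 of 6 higher ones, and at 2 of 18 uncalled ones. HDAC3 lay above at 3 of 3 higher-acetylation regions with a site, and at 2 of 13 lower ones. PU.1 lay above at 3 and below at 3 of 16 lower-acetylation regions. Over all sites of the genome, p300 lay above at 39.3% and below at 2.88%. HDAC1 lay below at 36.3%, HDAC3 above at 34.1%, and PU.1 above at 29.3% and below at 10.7%. Shares over the genome were not computed by acetylation call, and these counts are given without a test. At the Maf region at +234.4 kb, whose acetylation fell by 1.20 on the log2 scale, p300 was 37.8 and 131, then 43.4 and 56.2. Over the 294 merged sites, 110 were higher without overlap for at least 1 of the 6 antibodies (37.4%, against 31.7% of 130766 merged sites of the genome), 17 for at least 3 (5.78%, against 4.22%), and 2 for at least 5 (0.68%, against 0.671%). Lower sites were 56 for at least 1 (19%, against 20.7%) and 5 for at least 3 (1.7%, against 1.07%).

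To learn how a day of IL-4 bears on the later LPS response, the polymerase was compared across the 4 groups of the 24 hr experiment. Few calls fell on the member genes, in a genome in which many genes were called. For RNAPII-pS5, LPS alone called 25.4% of 12477 genes (8.3% higher, 17.1% lower), 24 hr of IL-4 called 8.66% (21.6% at an unadjusted p of 0.05), and IL-4 before LPS called 10% against LPS alone (26.1% unadjusted). The difference between the LPS responses with and without IL-4 was called in 6.11% (22.6% unadjusted). Of the 7 member genes tested, 1 was called with LPS and none in the other 3 comparisons, where 1, 2, and 0 passed the unadjusted p. For RNAPII-pS2, no member was called, against 26.7% of 13663 genes with LPS (39.9% unadjusted), 14.4% with IL-4 (29.5%), 8.46% with IL-4 before LPS (23.5%), and 6.38% for the difference of responses (22.4%), and 2, 0, 2, and 1 members passed the unadjusted p. The median over all genes was −0.34 log2 for RNAPII-pS5 and −0.22 for RNAPII-pS2 with LPS, and the ctrl/LPS lists of RNAPII-pS5 had the fewest peaks (14476 and 15349, against 20803 and 19279 in ctrl/ctrl).

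The 1 call was Csf1r, the M-CSF receptor. Its RNAPII-pS5 sum was 112 and 116 in ctrl/ctrl, 109 and 91.6 in IL-4 PT/ctrl, 27.3 and 45.8 in ctrl/LPS, and 37.7 and 39.5 in IL-4 PT/LPS. All 4 LPS samples lay below all 4 samples without LPS. LPS lowered it to 0.388 of the ctrl/ctrl level after centring (−1.37 log2, SE 0.33, limma adjusted p = 0.0281), and the call was lost without ctrl/ctrl replicate 1 or without ctrl/LPS replicate 1. The difference between the responses with and without IL-4 pretreatment was not called (0.11 log2, SE 0.46, adjusted p = 0.922). RNAPII-pS2 on Csf1r was 126 and 109, 90.6 and 106, 90.7 and 95, and 49.2 and 69.5 in the same order of groups, with no call (LPS −0.56 log2, SE 0.26, adjusted p = 0.171, and IL-4 before LPS −0.71 log2, SE 0.26, adjusted p = 0.17). Its 2 lowest values were those of IL-4 PT/LPS.

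On Maf, neither comparison of pretreated with unpretreated cells passed the threshold. The RNAPII-pS5 sums were 235 and 218 in ctrl/ctrl, 148 and 140 in IL-4 PT/ctrl, 181 and 182 in ctrl/LPS, and 151 and 127 in IL-4 PT/LPS. Both pretreated groups lay below their controls without overlap (−0.73 log2, SE 0.26, adjusted p = 0.17 without LPS, and −0.68 log2, SE 0.26, adjusted p = 0.165 with it). In RNAPII-pS2 the sums were 425 and 383, 290 and 344, 520 and 505, and 469 and 446, again lower in each pretreated group and again not called.

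Spi1 had RNAPII-pS5 sums of 10.3 and 30.6 in ctrl/ctrl, 41.5 and 44.3 in IL-4 PT/ctrl, 37.6 and 33.9 in ctrl/LPS, and 65.3 and 52.4 in IL-4 PT/LPS. The pretreated samples were above their controls in both pairs of groups, but the ctrl/ctrl samples themselves differed about as much (IL-4 1.20 log2, SE 0.55, adjusted p = 0.284). In RNAPII-pS2 the sums were 37.9 and 32.4, 33.0 and 35.3, 23.2 and 31.9, and 64.0 and 51.6. With LPS, the pretreated samples were higher by 1.03 log2 (SE 0.27), which missed the threshold (limma adjusted p = 0.0775).

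Runx1 had RNAPII-pS2 sums of 297 and 280, 291 and 300, 497 and 476, and 534 and 506 in the same order of groups. Both LPS groups stood above both others, but the difference was not called after centring (0.53 log2, SE 0.20, adjusted p = 0.11). Mitf had 100 and 96.0, 84.1 and 77.7, 82.7 and 59.9, and 107 and 96.5 (LPS −0.71 log2, SE 0.24, adjusted p = 0.0829). Cebpd had 71.0 and 77.8, 36.4 and 65.7, 99.6 and 76.2, and 56.2 and 50.9, with the pretreated samples lower in each pair of groups and no call (IL-4 before LPS −0.75 log2, SE 0.31, adjusted p = 0.213). Cebpa had RNAPII-pS5 sums of 28.6 and 37.4, 60.8 and 62.9, 17.0 and 30.8, and 44.2 and 29.6 (IL-4 0.85 log2, SE 0.40, adjusted p = 0.298). Both IL-4 PT/ctrl values lay above both ctrl/ctrl values, without a call.

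Cebpb was again read from the window of 3 kb around the gene. The highest RNAPII-pS5 score there was 10.3 and 8.41 in ctrl/ctrl, 11.5 and 8.75 in IL-4 PT/ctrl, 15.6 and 19.6 in ctrl/LPS, and 21.8 and 26.0 in IL-4 PT/LPS. The widest peak spanned 596 and 1446 bp in ctrl/ctrl and 1500 and 1732 bp in IL-4 PT/ctrl, against 4102 and 4044 bp in ctrl/LPS and 4015 and 3855 bp in IL-4 PT/LPS. All 4 LPS samples exceeded all 4 others in score and in width. RNAPII-pS2 scores were 9.4 and 8.06, 10.1 and 9.17, 16.0 and 17.6, and 21.6 and 19.7, and again the groups with LPS lay apart. These peaks carry other names in the lists, did not enter a fit for Cebpb, and are given without a test. The neighbour A530013C23Rik, fitted on the sum of all its peaks, was not called for RNAPII-pS5 with LPS (0.21 log2, SE 0.28, limma adjusted p = 0.614).

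**Figure D4:**
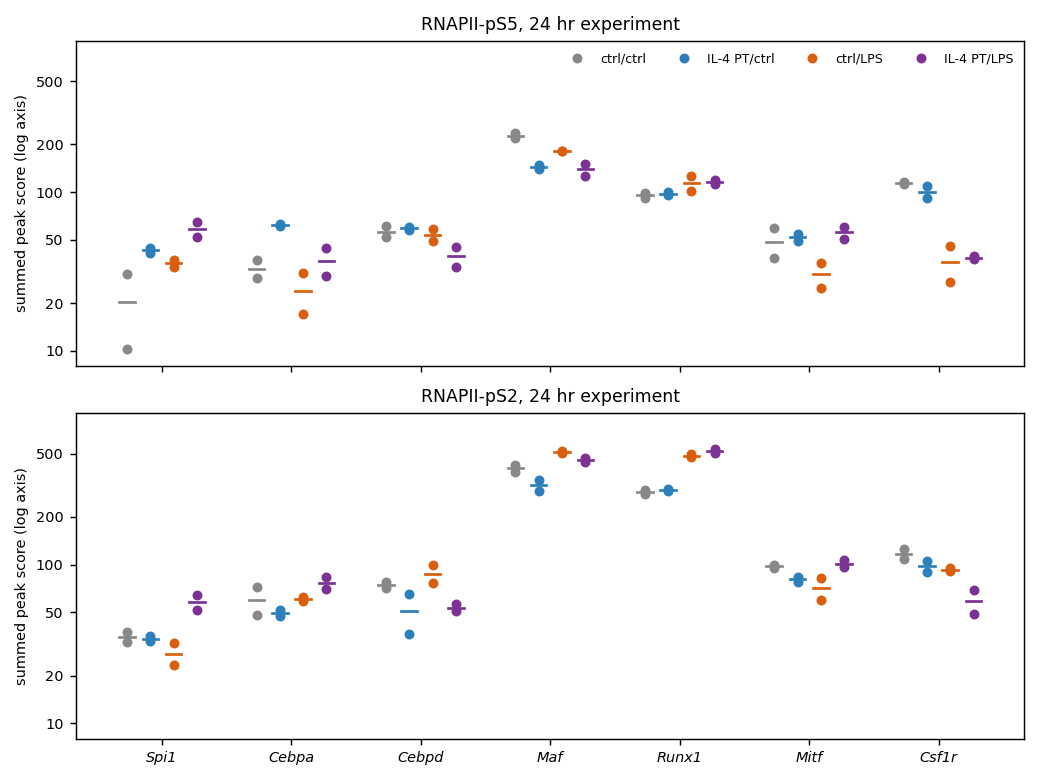
RNAPII-pS5 and RNAPII-pS2 scores summed per gene (y axis, logarithmic) for Spi1, Cebpa, Cebpd, Maf, Runx1, Mitf, and Csf1r in the 4 groups of the 24 hr experiment, with 1 dot per sample and a bar at the mean. The RNAPII-pS5 dots of Csf1r lie between 27.3 and 45.8 in the LPS groups and between 91.6 and 116 in the others.

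p65 was listed at more sites of these genes with LPS. Of 113 member sites tested, both ctrl/ctrl samples listed 31 (27.4%, against 17.5% of all sites), both IL-4 PT/ctrl samples 32 (28.3%, against 18.7%), both ctrl/LPS samples 70 (61.9%, against 55.6%), and both IL-4 PT/LPS samples 96 (85%, against 80.6%), and 16 were listed in all 8 samples. The libraries follow the same order, with 9706 and 9556 peaks in ctrl/ctrl, 11026 and 10253 in IL-4 PT/ctrl, 26305 and 26820 in ctrl/LPS, and 36738 and 38955 in IL-4 PT/LPS. The scores shared by all samples rose by 1.04 log2 with LPS, which centring removes. LPS thus called 49 member sites, 32 higher and 17 lower, or 43.4%, against 46.7% of 37564 sites (26.9% higher, 19.8% lower). Of the 17 lower calls, 11 are sites with no peak in any of the 4 samples compared, whose difference is the centring alone. Without centring the calls were 47 higher and 3 lower, and with a floor 4 times as high for unlisted samples they were 24 higher and 58 lower, against 71% of all sites called, so the balance of directions depends on both choices. Among sites with a peak in at least 1 compared sample, an alternative chosen after seeing the data, 31 of 94 were higher and 6 lower, against 37.9% of 29823 sites called. The median was 0.16 log2 over the member sites and 0.09 over all.

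At 28 member sites, p65 was listed in both ctrl/LPS samples and in no sample without LPS, or 24.8%, against 25.6% of all sites. Of these, 8 belonged to Maf, 8 to Runx1, 5 to Mitf, 4 to Cebpa, 2 to Csf1r, and 1 to Spi1. The Mitf intron at −29.7 kb (chr6:97961782-97962383) had 65.8 and 53.4 in ctrl/LPS and 53.8 and 48.7 in IL-4 PT/LPS (adjusted p = 0.000298). The Spi1 site at −6.4 kb (chr2:91090172-91090597) had 29.6 and 17.9, then 46.0 and 48.8 (adjusted p = 0.000924). At Runx1, −2.9 kb (chr16:92699980-92700411) had 29.2 and 25.6, then 22.9 and 22.6 (adjusted p = 0.000308). At Maf, +138.2 kb had 25.7 and 23.5, then 17.0 and 15.0 (adjusted p = 0.000329), the same place at which p300 scores were higher with 1 hr of IL-4. None of these was listed without LPS, and each adjusted p is that of ctrl/LPS against ctrl/ctrl. The ctrl/ctrl values are the floor, so each adjusted p rests on the listing.

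Other sites held p65 before LPS and gained score. The Spi1 promoter (−0.1 kb, chr2:91096423-91096954) had 5.10 and 7.03 in ctrl/ctrl, none in IL-4 PT/ctrl, 36.1 and 35.5 in ctrl/LPS, and 19.8 and 21.7 in IL-4 PT/LPS. LPS raised it (1.53 log2, SE 0.21, adjusted p = 0.00413), and IL-4 before LPS lowered it from the level of LPS alone (−1.06 log2, SE 0.21, adjusted p = 0.0134). The Maf site at +314.3 kb (chr8:115392278-115392879) had 10.4 and 8.05, then none, then 90.1 and 85.7, then 70.9 and 63.8 (LPS 2.22 log2, adjusted p = 0.0012). The Cebpd site at +97.1 kb, in an intron of Spidr, had 14.9 and 6.37, none, 93.5 and 92.1, and 62.9 and 72.5 (LPS 2.21 log2, adjusted p = 0.00892). In each of the 3, the weak p65 peak of resting cells was absent from both pretreated samples, and the LPS values of the pretreated cells lay below those of LPS alone in raw score.

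At a few sites p65 fell with LPS relative to all sites. Upstream of Csf1r at −19.1 kb, p65 was 28.0 and 35.6 in ctrl/ctrl, 27.2 and 32.2 in IL-4 PT/ctrl, 15.8 and 12.3 in ctrl/LPS, and 12.3 and 20.0 in IL-4 PT/LPS (−2.22 log2, SE 0.31, adjusted p = 0.00414). At Maf, +109.5 kb had 18.3 and 18.1, 7.81 and 9.45, 8.30 and 8.06, and 22.3 and 16.5 (−2.20 log2, adjusted p = 0.00209), and +151.2 kb had 18.4 and 18.5, 4.37 and 4.57, 9.56 and 13.9, and 5.98 and 8.00 (−1.72 log2, adjusted p = 0.00528). At these 3, the raw scores fell as well. At the Spi1 site at −10.2 kb they did not, with 52.3 and 60.3, 39.5 and 44.7, 58.6 and 65.3, and 53.1 and 49.0, so the call (−0.91 log2, adjusted p = 0.0162) turns to 0.14 log2 without centring.

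After 24 hr of IL-4 without LPS, 10 of 113 member sites were called, or 8.85%, 5 higher and 5 lower, against 4.22% (2.74% higher, 1.48% lower). Sites that gained p65 were Csf1r −18.4 kb (none in ctrl/ctrl, 9.41 and 6.88 in IL-4 PT/ctrl, none in either LPS group, adjusted p = 0.00419), Maf +169.8 kb (none, then 9.12 and 8.12, adjusted p = 0.00419), and 3 Cebpa sites. The Cebpa promoter at −0.2 kb had none, then 10.2 and 6.54 (adjusted p = 0.00949), +20.8 kb had none, then 4.73 and 6.72 (adjusted p = 0.00963), and +32.6 kb had none, then 4.73 and 10 (adjusted p = 0.0257). The Csf1r site is the one at which p300 was called higher after 1 hr of IL-4. It entered the p65 fit through the IL-4 PT/ctrl group alone, so its adjusted p for p65 rests on the listing. The 5 that lost p65 were Maf +308.8 kb (24.2 and 31.7, then none, adjusted p = 0.00405), Maf +314.3 kb (adjusted p = 0.00491), Maf +151.2 kb (−1.85 log2, adjusted p = 0.0185), the Spi1 promoter (adjusted p = 0.00835), and Cebpd +97.1 kb (adjusted p = 0.0258). Among sites with a peak in at least 1 compared sample, 6 of 56 were higher and 8 lower, against 13.1% of 16313 sites called. Without ctrl/ctrl replicate 1 the calls were 6 (1.69% over all sites), and without its replicate 2 they were 5 (1.26%). With a floor 4 times as high, 0 were higher and 2 lower (1.09%), so none of the 5 gains was called.

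Between IL-4 PT/LPS and ctrl/LPS, 32 of 113 sites were called, or 28.3%, 21 higher and 11 lower, against 31.3% (25.7% higher, 5.65% lower). Without centring the split was 25 higher and 6 lower. It turned to 1 higher and 4 lower without IL-4 PT/LPS replicate 1 (6.74% called over all sites), and to 2 higher and 5 lower without its replicate 2 (7.5%). The median was 0.17 log2 over the members and 0.39 over all sites. The pretreated LPS lists had more peaks than any other group, and 14 member sites were listed in both of their samples and in no other library, or 12.4%, against 17.4% of all sites. Of these the Mitf sites at −3.3 kb (19.2 and 16.8) and −1.3 kb (16.1 and 14.6) had the highest scores. Such sites entered the fit only through the group that lists them, and their other values are the floor. No p-value is therefore given for them here. Cebpa +32.6 kb went from none in ctrl/LPS to 30.1 and 36.4 (adjusted p = 0.000689), Maf +169.8 kb from 24.1 and 32.2 to 62.4 and 73.3 (1.01 log2, adjusted p = 0.0155), and Maf +168.7 kb from 0 and 3.80 to 29.4 and 23.9 (adjusted p = 0.00454). Lower calls included the Spi1 promoter, Maf +138.2 kb (−0.89 log2, adjusted p = 0.0158), and the Runx1 site at −258.5 kb (72.9 and 65.6, then 39.3 and 46.4, −0.97 log2, adjusted p = 0.0386).

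The difference between the LPS responses with and without IL-4 was called at 18 of 113 sites, or 15.9%, 14 higher and 4 lower, against 23.2% (17.7% higher, 5.56% lower), and without centring at 24 higher and 3 lower. Without ctrl/ctrl replicate 1 there were 8 higher and 2 lower calls (14.9% over all sites). The balance turned to 1 higher and 4 lower without IL-4 PT/LPS replicate 1 (3.78%), and to 1 higher and 3 lower without its replicate 2 (4.29%). Largest among the higher ones was Maf +308.8 kb (3.92 log2, SE 0.32, adjusted p = 0.00257), where p65 reached 77.3 and 75.9 in ctrl/LPS and 65.1 and 87.9 in IL-4 PT/LPS from unequal starting levels. There the LPS groups overlapped and the groups without LPS did not, and its size rests in part on the floor given to the unlisted IL-4 PT/ctrl samples. At Maf +109.5 kb the LPS groups did not overlap, with 8.30 and 8.06 in ctrl/LPS and 22.3 and 16.5 in IL-4 PT/LPS (interaction 1.85 log2, adjusted p = 0.0164).

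Among the p65 windows, the kappaB motif was found in 10 of 113 member windows, or 8.85%, against 14.2% of all 37556 windows. In the 32 windows with higher p65 after LPS, it was found in 1 (3.12%), the C/EBP motif in 10 (31.2%), and the AP-1 motif in 7 (21.9%), against 15.4% and 23.3% of all windows for the last pair. In the other 81 member windows the shares were 11.1% for kappaB, 17.3% for C/EBP, and 23.5% for AP-1. Windows with higher p65 after LPS were not counted over all genes, and these shares of few windows were not tested. Over all member windows the C/EBP motif stood in 21.2%, the PU.1 motif in 14.2% (8.28% of all), the AP-1 motif in 23%, and the STAT6 motif in 10.6% (8.44% of all). The following window is from a site of Mitf listed in IL-4 PT/LPS alone, with an AP-1 motif at bases 78 to 84 and a STAT6 motif at bases 94 to 103 (chr6:97803684-97803883), from GRCm38.p6, + strand, with the matches in capitals.
Mitf −3.3 kb: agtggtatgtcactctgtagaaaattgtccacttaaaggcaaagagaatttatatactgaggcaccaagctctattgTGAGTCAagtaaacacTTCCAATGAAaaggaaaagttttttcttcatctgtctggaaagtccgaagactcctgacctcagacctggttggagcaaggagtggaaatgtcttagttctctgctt

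**Figure D5:**
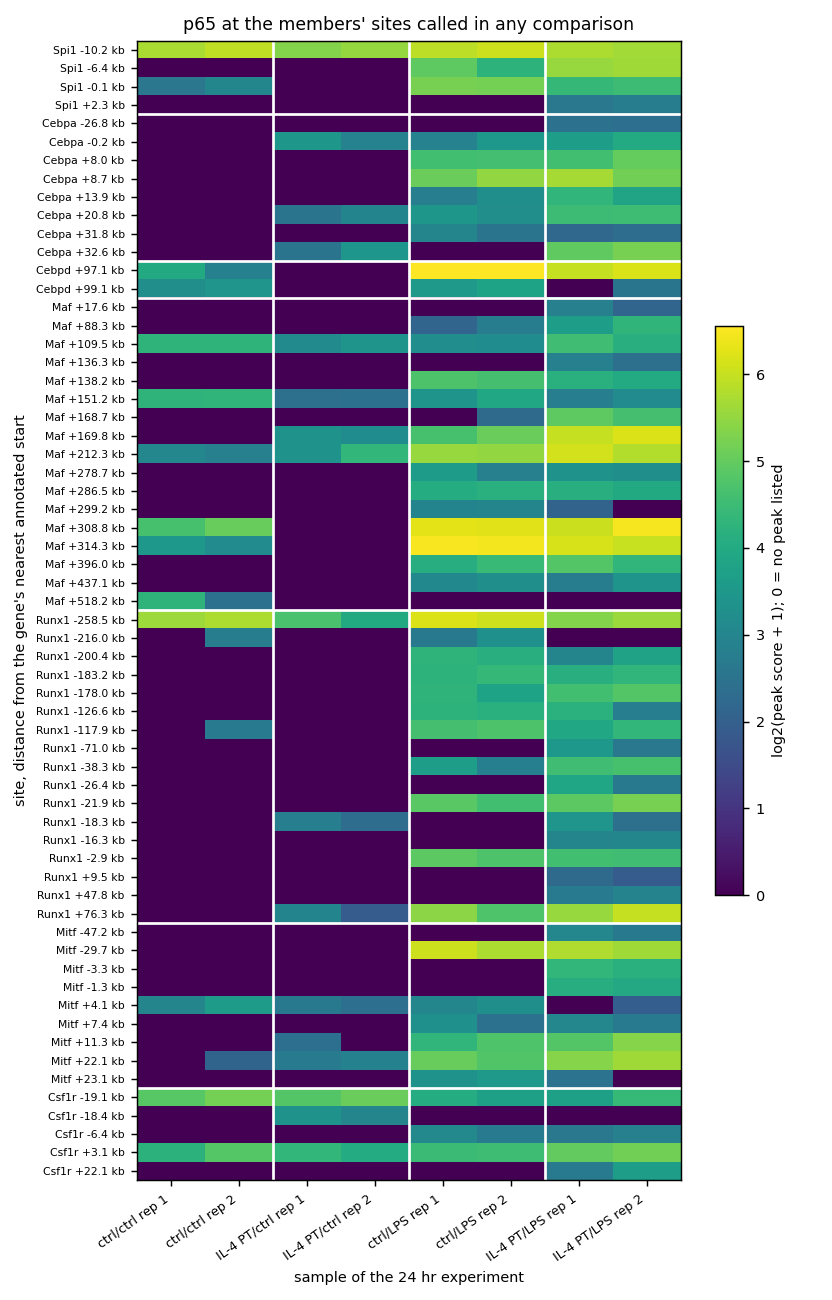
p65 score as log2(score + 1) (colour) at 62 sites of the member genes (rows, ordered by gene) in the 8 samples of the 24 hr experiment (columns, 2 per group). The rows are those of the 113 tested sites that were called in any p65 comparison, so sites without a call are not shown. Most rows are dark without LPS and bright in ctrl/LPS and IL-4 PT/LPS, and a smaller set is bright in IL-4 PT/LPS alone.

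Relatives and partners of the 8 genes were read from 2 lists that were chosen with earlier results of these data known. For RNAPII-pS5, 25.4% of all genes were called with LPS, 1.05% with 1 hr of IL-4, and 8.66% with 24 hr of IL-4. With IL-4 before LPS 10% were called, and for the difference of responses 6.11%. The calls on the lists stand beside these shares, and the lists as sets were not tested. With LPS, RNAPII-pS5 was called on 3 higher (Ets2 1.86 log2, Junb 1.19, Id3 1.99) and 3 lower (Cebpg −2.40, Cebpz −2.55, Fli1 −1.78) of 23 related factor genes. Of 16 genes of the CSF receptor pathway, 4 were higher (the ligand Csf1 2.58 log2, the receptors Csf3r 1.49 and Kit 3.26, the inhibitor Socs1 2.64) and 3 lower (the adaptor Grb2 −3.20, the exchange factor Sos1 −2.71, the phosphatase Inpp5d −3.41). Cebpz, Grb2, Sos1, and Inpp5d had no RNAPII-pS5 peak in either ctrl/LPS sample, and Kit had none in either ctrl/ctrl sample. The sizes of their differences from these groups are therefore set by the floor, and the calls rest on the listing. In RNAPII-pS5, the receptor Csf1r was thus called lower with LPS and its ligand gene Csf1 higher. RNAPII-pS2 was called with LPS on neither gene, and the limits of the Csf1r call given above apply. With 1 hr of IL-4, Socs1 alone was called (1.79 log2, SE 0.16, adjusted p = 0.0473) among 15 pathway genes, and 0 of 23 related factors were. With 24 hr of IL-4, Csf1 (1.54 log2) and Socs1 (2.56) were higher and no related factor was called. With IL-4 before LPS, Irf4 (2.80 log2), Cebpg (1.69), Cebpz (2.12), and Grb2 (2.22) were higher than with LPS alone, and Kit was lower (−1.93). The LPS response with IL-4 differed for Cebpz (2.69) and Socs1 (−2.93).

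RNAPII-pS2 gave fewer calls on the same lists. Over all genes, 26.7% were called with LPS, 14.4% with 24 hr of IL-4, and 8.46% with IL-4 before LPS. The difference of responses was called in 6.38% of all genes. With LPS, Gfi1 (1.39 log2) and Id3 (1.37) were higher and Cebpz lower (−2.36) among 24 related factors, and Csf3r (1.62), Kit (1.92), and Socs1 (2.03) were higher and Csf2rb2 lower (−1.21) in the pathway. With 24 hr of IL-4, Id2 (1.43), Il34 (2.47), Csf3r (1.12), and Socs1 (2.25) were higher and Gfi1 (−0.91) and Kit (−2.12) lower. Id2 and Id3 encode inhibitors of helix-loop-helix factors, and Il34 encodes the second ligand of Csf1r. With IL-4 before LPS, Sos1 was lower (−3.19), and the LPS response differed for Kit (2.87) and Socs1 (−1.80). RNAPII-pS2 was not listed for Cebpz in either ctrl/LPS sample or for Kit in either IL-4 PT/ctrl sample. It was also not listed for Sos1 in IL-4 PT/LPS replicate 1 or for Il34 in ctrl/ctrl replicate 2. The sizes of the differences from these samples rest on the floor. No gene of either list was called with 1 hr of IL-4.

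The genes whose RNAPII-pS5 profile over the 8 samples of the 24 hr experiment was nearest to a member, by root mean square difference of log2 values among 5015 genes with a peak in all 8, were Zfp335 (0.17), Ski, and Nat10 for Csf1r, Cd300lf (0.13), Napg, and Stard3nl for Maf, and Eif1 (0.09), 4930567H12Rik, and Rab5a for Runx1. For Mitf they were Gm10433 (0.13), Aasdh, and Sqstm1, for Cebpd C1qtnf9 (0.14), Rad51b, and Gm20110, for Cebpa Rhob (0.21), Blnk, and 2310039H08Rik, and for Spi1 Ensa (0.23), Tbcc, and Dram1. Spi1 had the loosest neighbours and Runx1 the closest.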

How the data were processed

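ChIP-seq peak lists of 56 samples from wild-type BMDMs, 2 per group, were analysed. The authors aligned reads to mm10 and annotated peaks with HOMER, and the submitters' processing notes name BWA 0.7.10, SAMtools 0.1.19, MACS2 2.0.10, and HOMER 4.2. For 52 lists the authors called peaks per sample with MACS2, and the deposited score is a −log10 of p or q, inferred from its values. For the 4 H3K27Ac lists the deposited value is a findPeaks signal of normalized tags. Both rise with depth, which is unknown without reads, so small differences between libraries of unequal depth are imprecise.

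RNAPII scores were summed per gene. Peaks of the other antibodies were merged into sites by an overlap of at least 1 bp, and a site took its highest score. Missing values received the lowest score of the antibody's files in that experiment, log2 values were taken, and the median of the features listed in every sample was subtracted from each library. Features with a peak in at least 2 samples were fitted with limma (all groups of an experiment in 1 fit), two-sided, with Benjamini-Hochberg adjustment over all features. A site listed in 1 group alone passes this filter through that group, and its other values are the floor. Its p-value therefore rests on the listing. The fit was tested on simulated data, built only from features listed in every sample. The rates that follow therefore do not cover sites that are unlisted in some samples. For H3K27Ac (23151 features), 66% of changes of 1 log2 unit and 89% of 2 units were recovered, with 0.0261% of unchanged features called, and for p65 with LPS (3971 features) 21% and 78%, with 0.0796%. Same-numbered replicates showed no shared deviation (correlations from −0.0476 to 0.0598), so no block was used.

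The members and lists were chosen with earlier results of these data known. All 8 members were named, with at most 3 called sites per member and comparison, the highest site and the site nearest the start for each antibody, and the 3 genes most like each member. One p65 site of Cebpa is the exception to this rule and is not reported here. Sites whose values are given beside a called site of another antibody, p300 sites that missed the adjusted threshold, and the printed windows were chosen after their values were seen. Alternatives were no centring, a floor 4 times as high, a peak in every sample, the upper 50% of peaks, an overlap of 100 bp, no intergenic peaks, the highest peak of a gene, the replicate block, unadjusted p, and leaving out each sample. R 4.3.3, limma 3.58.1, Python 3.11.15, pandas 2.3.3, NumPy 2.4.6, and Matplotlib 3.10.9 were used.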

Additional observations from a re-analysis of the deposited data

Results flagged for a closer look

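The 14 results here are p65 sites at which the response to LPS differed between IL-4-pretreated and unpretreated cells by a test of that difference (limma interaction, adjusted p of at most 0.05), out of 18 such sites, at most 3 per gene. Values are fitted log2 differences of the 2 responses, and the words larger and smaller refer to these fitted values. At sites listed in 1 group alone, named below, they rest on the listing and the floor. The response was larger with pretreatment at Maf +308.8 kb (3.92, SE 0.32, adjusted p = 0.00257), Mitf −3.3 kb (3.31, SE 0.26), Maf +168.7 kb (3.1, SE 0.71), Mitf −1.3 kb (3.08, SE 0.25), Csf1r +22.1 kb (2.18, SE 0.48), Runx1 −71.0 kb (2.01, SE 0.51), Maf +314.3 kb (1.96, SE 0.31), Runx1 −16.3 kb (1.96, SE 0.23), Mitf −47.2 kb (1.78, SE 0.33), Runx1 +47.8 kb (1.74, SE 0.25), Spi1 +2.3 kb (1.61, SE 0.24), and Cebpa −26.8 kb (1.27, SE 0.24). It was smaller at Csf1r −18.4 kb (−3.08, SE 0.28, adjusted p = 0.00258) and at the Cebpa promoter at −0.2 kb (−2.39, SE 0.45, adjusted p = 0.0149).

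At 9 of the 12 sites with a larger response, p65 was listed in both IL-4 PT/LPS samples and in no other sample, and these lists held the most peaks of any group. At Csf1r −18.4 kb, p65 was listed in both IL-4 PT/ctrl samples and in no other sample. Such sites entered the fit only through the group that lists them, so their p-values rest on the listing and the floor. The size of each of these differences depends on the floor given to unlisted samples, the direction turned at Cebpa −26.8 kb, Maf +314.3 kb, Mitf −47.2 kb, Runx1 +47.8 kb, Runx1 −16.3 kb, and Spi1 +2.3 kb with a floor 4 times as high, and the part of list length in them was not tested. Without either IL-4 PT/LPS library, 1 member site had a larger response past the threshold.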

How the results depend on the processing

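Over 75 named sites and genes, 855 alternatives gave 703 with the same direction and side of the threshold, 139 with the same direction and the call lost, and 13 reversed. Over the 20 comparisons, the count of called members stayed within 1.5 times in 228 alternatives and moved in 59. The values that follow are counts of called members under each alternative, each with the share called over all sites or genes, and where no value shows otherwise the cause was not tested.

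With an unadjusted p of at most 0.05, 1 gene was called for RNAPII-pS2 with 1 hr of IL-4 (16.8%), 13 sites for PU.1 (12.1%), 54 for p300 (25%), 12 for HDAC1 (14%), 9 for HDAC2 (13.9%), and 5 for HDAC3 (19.3%). In the 24 hr experiment the counts were 1 for RNAPII-pS5 with IL-4 (21.6%), 2 for RNAPII-pS5 with IL-4 before LPS (26.1%), 2 for RNAPII-pS2 with LPS (39.9%), 2 for RNAPII-pS2 with IL-4 before LPS (23.5%), 1 for the RNAPII-pS2 difference of LPS responses (22.4%), 20 for p65 with IL-4 (10.1%), and 35 for the p65 difference of LPS responses (33.1%).

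With a floor 4 times as high, the counts were 1 for RNAPII-pS2 (5.77%), 3 for PU.1 (1.6%), 0 for p300 (0%), and 1 for HDAC1 (1.39%) in the 1 hr experiment. In the 24 hr experiment they were 2 for RNAPII-pS5 with LPS (19.5%), 1 with IL-4 (9.5%), and 1 with IL-4 before LPS (8.3%), 2 for RNAPII-pS2 with LPS (29%) and 1 with IL-4 before LPS (9.75%), and, for p65, 82 with LPS (24 higher and 58 lower, 71%) and 2 with IL-4 (both lower, 1.09%). With the upper 50% of peaks, they were 5 for PU.1 (10.1%), 4 for p300 (all lower, 2.21%), 4 for HDAC1 (14.7%), 4 for HDAC2 (12.5%), 2 for HDAC3 (17.7%), 2 for RNAPII-pS2 with LPS (26.1%), and 17 for p65 with IL-4 before LPS (33%). With a peak in every sample, where fewer sites are tested, they were 23 for p300 (9 higher and 14 lower, 13.8%), and, for p65, 6 with LPS (1 higher and 5 lower, 39.5%), 2 with IL-4 (7.48%), 0 with IL-4 before LPS (0.781%), and 0 for the difference of responses (0%). Without centring, 0 were called for p300 (0%) and 1 for RNAPII-pS2 with LPS (26.5%). For RNAPII-pS2 with LPS, no intergenic peaks gave 1 (22.1%) and the highest peak gave 2 (26.2%).

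With the replicate block, 18 H3K27Ac regions (7 higher and 11 lower, 29.1%) and 0 p300 sites (0%) were called, and the block moved no other count by over 1.5 times (50 p65 sites with LPS). Same-numbered samples shared only a number, with correlations of at most 0.0598. Leaving out 1 library gave 10 to 14 for H3K27Ac (16.3% to 23.3%), 0 to 27 for p300 (0% to 14.3%), 0 to 1 for RNAPII-pS5 with LPS (15.5% and 16.1% where it was 0), and, for p65, 35 to 52 with LPS (29.2% to 45.3%), 5 to 10 with IL-4 (1.26% to 4.79%), 5 to 30 with IL-4 before LPS (6.74% to 32.1%), and 4 to 22 for the difference of responses (3.78% to 24%). In these fits the lone sample of a group is assumed to vary like the others. The lowest counts of the last 2 came without an IL-4 PT/LPS library, where the calls turned from mostly higher to mostly lower, and the lowest of p65 with IL-4 without a ctrl/ctrl library.

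The 13 reversals were all p65. With a floor 4 times as high, the log2 difference of IL-4 before LPS became −0.27 at Cebpa −26.8 kb, −0.14 at Maf +136.3 kb, and −0.19 at Spi1 +2.3 kb. The difference of LPS responses became −0.46 at Cebpa −26.8 kb, −0.04 at Maf +314.3 kb, −0.22 at Mitf −47.2 kb, −0.26 at Runx1 +47.8 kb, −0.04 at Runx1 −16.3 kb, and −0.39 at Spi1 +2.3 kb, and the LPS difference became −0.23 at Cebpa +20.8 kb and −0.74 at Csf1r −6.4 kb. With the upper 50% of peaks, the IL-4 difference at the Spi1 promoter became 0.3, and without centring the LPS difference at Spi1 −10.2 kb became 0.14. The depth of the lists, known only as numbers of peaks, limits every count.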
